A study of Mus musculus with 24 samples.

Results

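Genes that set how a retinal neuron responds to glycine were followed through mouse development: the glycine receptor subunit genes Glra1, Glra2, Glra3 and Glrb, and the chloride cotransporter genes Slc12a2 and Slc12a5. They were chosen by name in the deposited table of gene counts, restricted to chromosomes 1 to 19 and X, and all 6 of 6 were found among 45594 genes. The whole retina of C57/Bl6N mice was sequenced, with no genetic change or treatment named in the labels, at the embryonic ages E11, E12, E14 and E16, and after birth at P0, P2 and P4, at P6 and P10, and at P14, P21 and P28 (E, embryonic day; P, postnatal day). Each of these 12 stages has 2 libraries (24 in all), made from polyadenylated RNA with a protocol that keeps the strand. The libraries of E11 and E12 were made from 100 ng of total RNA and those of the other stages from 1 µg, so that age and RNA input cannot be told apart in a comparison of E11 or E12 with a later stage. The labels do not say whether the libraries of a stage come from separate animals, litters or pools, so the p-values measure only the spread between these libraries.

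Glycine receptors are chloride channels built of alpha subunits, which bind glycine, and the beta subunit, which ties the channel to the gephyrin scaffold under the synapse. Whether an open channel inhibits or depolarizes a neuron depends on its chloride gradient: NKCC1, the product of Slc12a2, carries chloride into the cell together with sodium and potassium, and KCC2, the product of Slc12a5, carries chloride out together with potassium. In the retina glycine is released by a class of amacrine cells, inner retinal interneurons that contact bipolar cells, ganglion cells and other amacrine cells.

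Levels are given as CPM, a library's estimated counts for the gene scaled to a fixed library total, after trimmed-mean (TMM) scaling, and levels of different genes are compared as CPM per kilobase of transcript; the count ratio of Slc12a5 to Slc12a2 is read for its course over stages and not for which gene is higher. A gene was called when the Benjamini-Hochberg adjusted p of edgeR's quasi-likelihood test was under 0.05 over the 21858 genes tested and the difference was at least 2-fold. Library totals ran between 24567532 and 35898879 estimated counts, so 3 counts summed over a stage's 2 libraries, the floor used for a stage without counts, are worth about 0.0503 CPM at E11. All 6 genes were among the genes tested. Over the 12 stages, 5 of the 6 were called, where 77.3% of all genes were, and Slc12a2 was the one that was not.

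The tissue label was checked on a list of 6 genes of the retina, all of which had counts at every stage, with sums between 656 and 2084 CPM per library. RNA of neighbouring tissue was also present, and not at the first stages alone. A list of 10 lens genes summed to 3233 and 22.6 CPM in replicates 1 and 2 of E11, to 237 and 3150 CPM at E12 and to 72.7 and 2624 CPM at E14, against at most 119 CPM in any library of the later stages. A list of 7 red cell genes summed to 2.75 and 1.46 CPM at P0, against 3159 and 7662 CPM at E11. A list of 8 genes of the pigment epithelium summed to 218 and 174 CPM at E11 and 17.6 and 20.3 CPM at P0. It was again high at P10 (157 and 205 CPM) and P14 (135 and 114 CPM), against 25.65 and 43.3 CPM at P21. The lens and red cell sums thus move with the earliest stages, and the pigment epithelium sum also with P10 and P14. The part of these tissues in the values below was not tested. The list of 7 rod photoreceptor genes summed to 53944 and 59711 CPM at P28, against 7.82 and 7.01 CPM at E11, so the make-up of the retina changed strongly over the series. In such whole-tissue libraries, a smaller share of cells of a type and less RNA per cell cannot be told apart.

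Glra2 encodes alpha2, known in rodent brain as the alpha subunit of the embryonic and newborn nervous system. It lies on chromosome X at 165129017 to 165327393 of GRCm38, on the reverse strand, and has 1 transcript in the deposited transcript table. It had 0.0694 and 0 CPM at E11, no counts at E12, 3.91 and 2.59 CPM at E14 and 11.15 and 10.3 CPM at E16. After birth it had 25.4 and 26.4 CPM at P0, 27.2 and 30.9 CPM at P2, 58.6 and 56.2 CPM at P4, 45.9 and 49.0 CPM at P6, 35.1 and 32.7 CPM at P10, 38.7 and 46.2 CPM at P14, 18.8 and 19.2 CPM at P21 and 25.6 and 24.6 CPM at P28. The highest stage was P4, both of whose libraries lay above every other library, and every library of E14 lay above every library of E11 and E12. In the order of stage means, only P6 and P14, P0 and P28, and E11 and E12 were neighbours whose libraries overlapped.

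Of the 6 genes, Glra2 made the most calls between neighbouring stages: 4 of the 8 calls made in 66 pairs of a gene and a step, where 6.76% of all such pairs over the genes tested were called. At E14 its mean was at least 61.5-fold that of E12, where no read was counted, and the adjusted p of edgeR's quasi-likelihood test was 8.72e-09; 7.52% of all genes were called higher in that step. It rose again at E16 over E14, by a log2 change of 1.71 (SE 0.18, adjusted p = 5.07e-06; 5.47% of genes called higher), and at P0 over E16, by 1.27 (SE 0.163, adjusted p = 5.74e-05; 4.75% called higher). The step to P4 over P2 was 0.98, under the 2-fold threshold, with an adjusted p of 0.000178. At P21 it fell to 19 ± 0.314 CPM, against 42.4 ± 5.35 CPM at P14 (SD, n = 2 libraries each), a log2 change of -1.16 (SE 0.16, adjusted p = 6.71e-05; 5.07% called lower).

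Amacrine and ganglion cell markers, like Glra2, were higher at E16 than at E12, but the ganglion cell markers did not follow Glra2 at each step. All 10 genes of the amacrine list had counts at E12, E14 and E16, and their sum was 397 and 355 CPM at E16, against 26.2 and 31.0 CPM at E12. The sum of 10 ganglion cell genes was 1293 and 1245 CPM at E16, against 282 and 178 CPM at E12. The ganglion cell sum was already 1346 and 1245 CPM at E14, and it was 646 and 630 CPM at P0. The amacrine sum was 90.65 and 79.1 CPM at E14 and 600 and 528 CPM at P0. The part of these cells in the rise of Glra2 was not tested. Between P14 and P21, where Glra2 fell, the amacrine sum was 750 and 796 CPM at P21, against 899 and 923 CPM at P14. The ganglion cell sum was 986 and 965 CPM at P21, against 1382 and 1438 CPM at P14, the sum of 9 bipolar cell genes 1405 and 1509 CPM, against 1864 and 2000 CPM, and the rod sum was 81655 and 74019 CPM at P21, against 30764 and 31556 CPM at P14. Their part in the fall was not tested.

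Glra1 encodes alpha1, the main alpha subunit of the adult spinal cord and brainstem, where mutations of it cause startle disease. It lies at 55514238 to 55608198 of chromosome 11, on the reverse strand. No read of Glra1 was counted in any library of E11, E12 or E14. It had 0.0363 and 0.111 CPM at E16, which are 1.21 and 3.6 estimated counts, 0.0545 and 0.0763 CPM at P0, 0.14 and 0.274 CPM at P2, 0.424 and 0.584 CPM at P4 and 0.762 and 0.854 CPM at P6. It then had 4.09 and 2.58 CPM at P10, 11.5 and 10.8 CPM at P14, 9.89 and 11.5 CPM at P21 and 12.8 and 11.9 CPM at P28. Every library from P14 on lay above every library of P10, and both libraries of P10 lay above all earlier ones. The mean of P28 was at least 245-fold that of E11, where the gene had no counts.

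Both steps at which Glra1 was called fall in the second postnatal week. At P10 it averaged 3.34 ± 1.07 CPM, against 0.808 ± 0.065 CPM at P6 (SD, n = 2 libraries each), a log2 change of 2.04 (SE 0.315, edgeR adjusted p = 0.000313), in a step where 4.59% of genes were called higher. At P14 it averaged 11.12 ± 0.504 CPM, against 3.34 ± 1.07 CPM at P10, a log2 change of 1.73 (SE 0.285, adjusted p = 0.000903; 3.45% called higher). Afterwards the libraries of P14 and P21 overlapped, and the change at P28 over P21 was 0.21 with an adjusted p of 0.751.

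Glra1 has 3 coding transcripts in the deposited table. One of them, Glra1-003, carries a 24-base insert in the coding sequence, at 55515104 to 55515127 of chromosome 11 (GRCm38), that Glra1-002 lacks. The stretch is shown because it is the one place where their coding sequences differ; capitals mark the insert, and 18 shared bases stand on either side in lower case, read from the GENCODE transcripts.
Glra1-003: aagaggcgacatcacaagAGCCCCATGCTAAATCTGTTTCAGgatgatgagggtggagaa
Glra1-002: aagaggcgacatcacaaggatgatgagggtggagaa

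The form without the insert held the larger mean share of the gene's estimated counts from P14 on. Glra1-002 took 57.7% at P14, 60.9% at P21 and 61.0% at P28, and Glra1-003 took 37.2%, 37.1% and 37.1% at the same stages. Single libraries ran between 51.2% and 67.0% for Glra1-002 and between 29.0% and 45.1% for Glra1-003, so the forms did not overlap at these 3 stages. At P10 the libraries disagreed, with 63.9% and 7.46% for Glra1-003, on 128 and 80.0 estimated counts for the gene. The transcripts also differ outside the insert: Glra1-002 is 2390 bases long with its 5′ end at 55608198, and Glra1-003 is 2037 bases long with its 5′ end at 55607821, so the shares need not rest on the insert. They rest on reads that overlapping transcripts divide between them, so they are estimates rather than counts of either form.

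Glra3 encodes alpha3, an alpha subunit found in the retina, the spinal dorsal horn and other regions. It lies at 55940460 to 56125429 of chromosome 8, on the forward strand. It had 0.524 and 0.482 CPM at E11, 1.99 and 0.552 CPM at E12, 0.369 and 0.942 CPM at E14 and 0.903 and 1.15 CPM at E16. It had 0.948 and 1.45 CPM at P0, 1.84 and 1.29 CPM at P2, 1.91 and 2.01 CPM at P4, 3.31 and 2.37 CPM at P6, 12.7 and 8.91 CPM at P10, 22.8 and 22.0 CPM at P14, 20.5 and 20.3 CPM at P21 and 18.4 and 21 CPM at P28. The libraries of E11 to P2 overlapped between every pair of neighbours in the order of stage means, and those of P10 lay apart from both P6 and P14.

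Glra3 rose at P10 over P6 by a log2 change of 1.93 (SE 0.377, edgeR adjusted p = 0.00119). At P14 over P10 the change was 1.05 (SE 0.353) with an adjusted p of 0.0477, just inside the threshold. That second call did not hold when any one of the 4 libraries of P10 and P14 was left out, with changes between 0.82 and 1.33 and adjusted p-values between 0.0697 and 0.328.

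Before birth and up to P2, the gene count of Glra3 came mostly from Glra3-002, a transcript annotated as a processed transcript without a coding sequence. The coding transcript Glra3-001 held 2.5% of the gene's estimated counts at E11, 23.5% at E16, 62.6% at P6 and 89.6% at P14. Per kilobase, the coding transcript had 8.38 and 7.82 CPM at P14, against 0.0176 and 0 CPM at E11, while the processed transcript had 0.359 and 0.618 CPM at P14, against 0.174 and 0.172 CPM at E11. All libraries of the coding transcript from P10 on lay above all earlier ones, and those of the processed transcript stayed between 0.116 and 0.685 CPM per kilobase throughout. Glra3-001 is 1867 bases long in the deposited table and 6508 bases in the GENCODE annotation used here, and none of the sources states how reads of the longer form were counted.

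**Figure D1:**
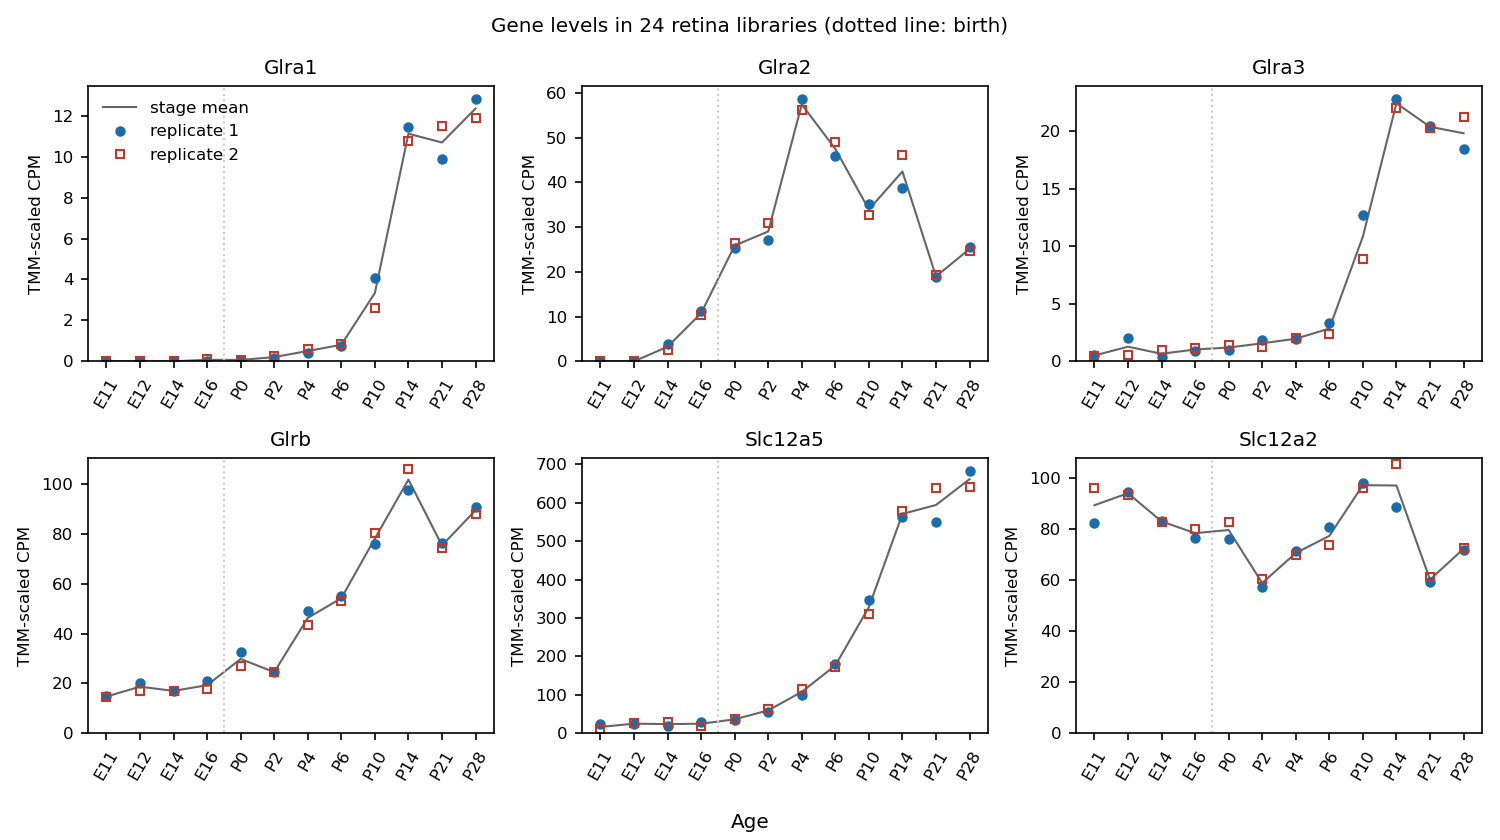
TMM-scaled CPM (vertical axes, linear, one scale per gene) of the 6 genes in replicate 1 (filled circles) and replicate 2 (open squares) at 12 ages from E11 to P28, with the stage mean as a line and birth as a dotted line. Glra2 is highest at P4 (58.6 and 56.2 CPM), Glra1 and Glra3 are low until P6, Slc12a5 climbs to 683 and 640 CPM at P28, and Slc12a2 stays between 57.3 and 106 CPM.

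Set side by side per kilobase of coding transcript, Glra2 held a smaller share of the alpha level at later stages. Glra4, the gene of the remaining alpha subunit, was counted with them. Glra2 held 93.4% ± 7.4 of the summed alpha level at E14, 97.0% ± 0.0748 at P0, 91.4% ± 1.76 at P6, 64.7% ± 5.22 at P10, 46.9% ± 4.42 at P14, 30.6% ± 0.0947 at P21 and 34.5% ± 0.286 at P28 (SD, n = 2 libraries each). Glra1 held 2.24% ± 0.0716 at P6, 19.4% ± 1.62 at P14 and 28.3% ± 1.09 at P28. Glra3 held 4.96% ± 0.949 at P6, 29.0% ± 2.49 at P14, 37.1% ± 1.47 at P21 and 30.5% ± 3.81 at P28. At P21 both libraries had more Glra3 (38.2% and 36.1%) than Glra2 (30.6% and 30.5%), and at P28 both had more Glra2 (34.7% and 34.3%) than Glra3 (27.8% and 33.2%). This order depends on the length of Glra3-001: with the GENCODE length of 6508 bases in place of the deposited 1867, an alternative chosen after seeing the data, Glra3 held 15.05% and 13.95% at P21 and Glra2 42.1% and 41.1%, and Glra2 held 59.05% ± 4.245 at P14 and 44.1% ± 1.17 at P28. The order of Glra1 and Glra3 depends on the length of Glra3-001 as well. With the deposited length, the mean share of Glra3 was above that of Glra1 at P14, P21 and P28. With the GENCODE length, Glra1 held more than Glra3 in both libraries of each of these stages. On that length Glra1 held 31.93% and 35.1% at P21. At P28 it held 36.22% and 36.03%, against 9.941% and 12.47% for Glra3. With the deposited length, Glra4 held no more than 7.65% in any stage mean from E14 on. The sum of the 4 alpha genes was 1.08 ± 0.228 CPM per kilobase at E14, 8.5 ± 0.273 at P0, 19.5 ± 0.588 at P4, 28 ± 1.05 at P14 and 22.8 ± 0.25 at P28. At E11 and E12 it was 0.129 and 0.153 CPM per kilobase, which rests on a few reads, so no shares are read at those stages.

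**Figure D2:**
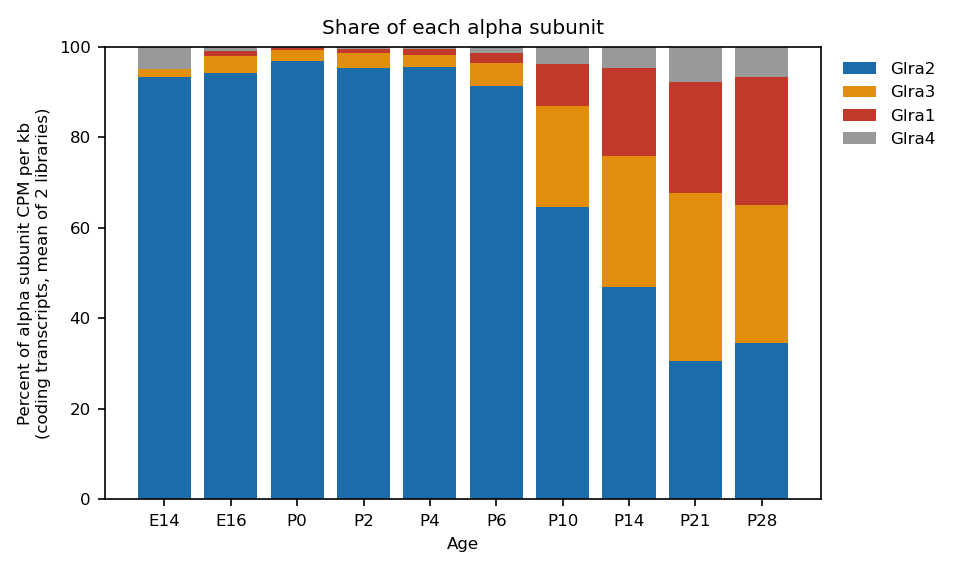
Share of each alpha subunit gene in the summed CPM per kilobase of coding transcripts (vertical axis, percent, mean of 2 libraries) at 10 ages from E14 to P28. The Glra2 part is 34.5% at P28, against 97.0% at P0, and the Glra3 and Glra1 parts widen from P10 on; the Glra3 part uses the deposited transcript length.

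Glrb encodes the beta subunit, which carries the gephyrin-binding loop. It lies at 80843599 to 80913660 of chromosome 3, on the reverse strand. Unlike the alpha subunit genes, it was well counted at every stage. It had 14.8 and 14.7 CPM at E11, 20.3 and 17.1 CPM at E12, 17.2 and 16.9 CPM at E14 and 20.97 and 17.6 CPM at E16. It had 32.7 and 27.0 CPM at P0, 24.4 and 24.6 CPM at P2, 49.0 and 43.6 CPM at P4, 55.2 and 53.3 CPM at P6, 76.1 and 80.2 CPM at P10, 97.7 and 106 CPM at P14, 76.6 and 74.2 CPM at P21 and 90.8 and 88.2 CPM at P28. Both libraries of P14 lay above every other library, and all 16 postnatal libraries lay above all 8 embryonic ones. No single step reached 2-fold. The largest was P4 over P2, a log2 change of 0.92 (SE 0.11, edgeR adjusted p = 1.02e-05), and the one decrease with an adjusted p under 0.05 was P21 over P14, a change of -0.43 (adjusted p = 0.0058).

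How Glrb divides between transcripts could not be followed. The main coding transcript Glrb-001 and the transcript Glrb-004, annotated for nonsense-mediated decay, cover nearly the same stretch, and the share of Glrb-001 was 11.8% and 0% in the 2 libraries of E12, 22.0% and 56.3% at P0 and 80.8% and 59.5% at P14. The share of Glrb-006, annotated as a retained intron, was closer between libraries. It was 41.2% and 42.2% at E11, 41.1% and 42.8% at E16, 18.5% and 15.9% at P6 and 17.4% and 18.3% at P28, so every library of P6 and P28 lay below every library of E11 and E16 in this share. The level of Glrb-006 per kilobase was nevertheless 10.8 CPM at P28, against 3.56 CPM at E11.

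Slc12a2, the gene of the chloride importer NKCC1, lies at 57878678 to 57946821 of chromosome 18 and has 1 transcript in the deposited table. It was the most even of the 6 genes. It had 82.7 and 96.3 CPM at E11, 94.9 and 93.5 CPM at E12, 83.3 and 82.9 CPM at E14 and 76.8 and 80.3 CPM at E16. It had 76.4 and 83.1 CPM at P0, 57.3 and 60.6 CPM at P2, 71.4 and 70.1 CPM at P4, 81.0 and 73.9 CPM at P6, 98.4 and 96.3 CPM at P10, 88.9 and 106 CPM at P14, 59.2 and 61.4 CPM at P21 and 72.1 and 72.7 CPM at P28. The stages were not level: the edgeR test over all 12 stages gave an adjusted p of 6.76e-06, but the highest and the lowest stage were only 0.72 apart on the log2 scale. P2 and P21 were the low stages, their 4 libraries below all others, and P10 and P14 had the highest means.

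The steps of Slc12a2 with an adjusted p under 0.05 in edgeR's quasi-likelihood test went both ways and none reached 2-fold. The log2 change was -0.44 at P2 over P0 (SE 0.0937, adjusted p = 0.00446), 0.26 at P4 over P2 (adjusted p = 0.0393), 0.33 at P10 over P6 (adjusted p = 0.0159) and -0.69 at P21 over P14 (SE 0.0938, adjusted p = 4.58e-05).

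Slc12a5, the gene of the chloride exporter KCC2, a transporter known as specific to neurons, lies at 164960802 to 164999731 of chromosome 2, on the forward strand. It had 23.0 and 10.09 CPM at E11, 23.8 and 26.5 CPM at E12, 18.8 and 29.1 CPM at E14 and 29.7 and 20.3 CPM at E16. It had 35.3 and 37.3 CPM at P0, 56.7 and 62.6 CPM at P2, 101 and 115 CPM at P4, 181 and 172 CPM at P6, 347 and 309 CPM at P10, 563 and 579 CPM at P14, 550 and 639 CPM at P21 and 683 and 640 CPM at P28. From P0 to P14 both libraries of each stage lay above all libraries before them. Of the embryonic stages, only E11 and E12 had libraries that did not overlap each other, and the libraries of P14 and P21 overlapped. Within E11, E12 and E14, the library with the larger lens sum had more Slc12a5. The libraries of E16 differed as well, with lens sums of 1.735 and 2.16 CPM. The part of lens RNA in these values was not tested. No single step reached 2-fold: the steps with an adjusted p under 0.05 were P4 over P2 (log2 change 0.85, adjusted p = 0.0152), P10 over P6 (0.90, adjusted p = 0.0154) and P14 over P10 (0.80, adjusted p = 0.0344).

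Slc12a5 has alternative first exons that give the protein different amino termini. Of its deposited transcripts, 4 begin upstream, between 164960802 and 164960846 of chromosome 2 (GRCm38), 4 begin downstream, between 164967983 and 164968281, and 2 begin inside the gene.

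By the deposited estimates, coding transcripts of both starts had higher levels after birth, and the upstream group had the larger mean at every stage and the larger level in every library but P4 replicate 1. The upstream coding group had 4.65 and 3.1 CPM per kilobase at E16, 25.7 and 24.7 at P6 and 129 and 113 at P28. The downstream coding group had 1.73 and 1.29 CPM per kilobase at E16, 19.4 and 19.8 at P6 and 71.2 and 68.3 at P28. Of the gene's estimated counts, the downstream coding group took 5.24% at E11, 9.51% at E16, 18.4% at P6 and 20.3% at P28. The jump of this group came at P4, with 13.3 and 12.4 CPM per kilobase, against 1.61 and 3.07 at P2, a step at which the upstream coding group had 12.5 and 17.5, against 13.5 and 13.6. At P4 the group's level lay wholly in the short transcript Slc12a5-008, of 1202 bases with 693 coding bases. The group's other transcript, Slc12a5-001, with 3345 coding bases, had no estimated counts in either library of that stage. At P28 Slc12a5-001 had a mean of 16.35 CPM per kilobase, against 69.8 for the group. No test was made on these estimates, because reads of the shared exons are divided between the groups by the authors' quantification.

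**Figure D3:**
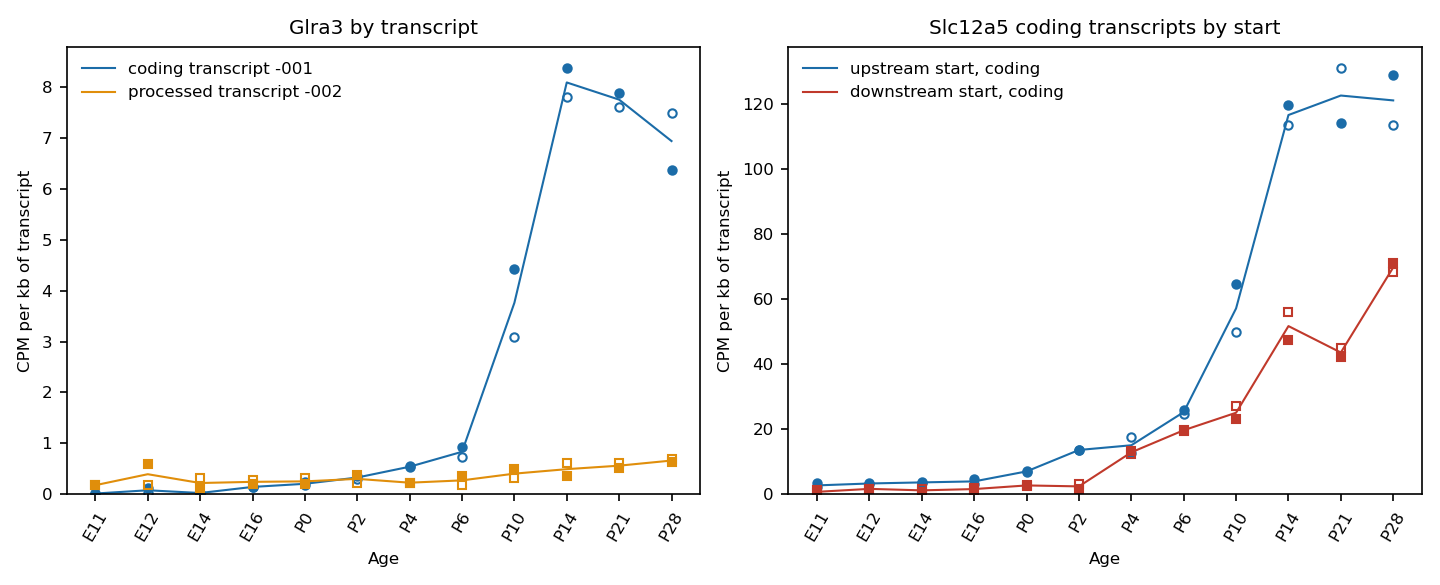
CPM per kilobase of transcript (vertical axes, linear) at 12 ages for the coding and the processed transcript of Glra3 (left) and for the coding transcripts of Slc12a5 by start (right), with lines for stage means, filled symbols for replicate 1 and open symbols for replicate 2. The coding Glra3 transcript reaches 8.38 and 7.82 at P14 while the processed one stays at 0.685 or less, and both Slc12a5 groups climb after P2.

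The DNA before both Slc12a5 starts is shown because transcripts of the upstream and the downstream group are compared above. The downstream window ends by the start of Slc12a5-001 (164967983). Slc12a5-008 of the same group begins further on, at 164968239. The 250 bases before each RefSeq start (GRCm38.p6, forward strand) are chr2:164960596-164960845 and chr2:164967738-164967987, printed with every CG pair in capitals.
Slc12a5 upstream start: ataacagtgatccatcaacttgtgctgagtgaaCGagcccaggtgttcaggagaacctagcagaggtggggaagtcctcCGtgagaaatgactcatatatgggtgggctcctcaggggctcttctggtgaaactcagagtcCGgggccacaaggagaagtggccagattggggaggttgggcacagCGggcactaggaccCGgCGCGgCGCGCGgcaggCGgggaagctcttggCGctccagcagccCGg
Slc12a5 downstream start: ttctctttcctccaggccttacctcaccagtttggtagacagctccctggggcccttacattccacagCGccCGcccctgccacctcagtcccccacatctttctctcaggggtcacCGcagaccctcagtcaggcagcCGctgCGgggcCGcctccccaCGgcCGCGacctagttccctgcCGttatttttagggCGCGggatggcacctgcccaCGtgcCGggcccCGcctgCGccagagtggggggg

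Over windows of 300 bases, 250 before a start and 50 after it, the upstream Slc12a5 window had 63.7% G and C with 21 CG pairs, and the downstream window 68.3% with 21. The window of Glrb had 65.7% with 30 CG pairs, that of Glra3 56.0% with 8, and that of Glra2 50.3% with 9. Over all 32851 RefSeq promoter windows the medians were 52.7% and 7 CG pairs. The letters GCGNGGGCG, which zinc finger factors of the EGR family can bind, were searched on both strands and occur in 5.55% of all windows. Of the 5 windows they were in that of Glra3 alone, beginning 16 bases before the start on the reverse strand. The letters TTCAGCACC, the left part of the element bound by the repressor REST, occur in 0.371% of all windows and in none of these 5. The searches read letters only and say nothing of binding.

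The balance of the transporter genes was followed as the ratio of Slc12a5 to Slc12a2 counts in the same library, which does not depend on library scaling. The ratio was 0.278 and 0.105 in the libraries of E11, 0.251 and 0.283 at E12, 0.226 and 0.351 at E14, 0.386 and 0.253 at E16, 0.462 and 0.449 at P0, 0.989 and 1.03 at P2, 1.41 and 1.64 at P4, 2.24 and 2.33 at P6, 3.53 and 3.21 at P10, 6.33 and 5.48 at P14, 9.28 and 10.4 at P21 and 9.47 and 8.8 at P28. The embryonic libraries overlapped from stage to stage. From P0 to P21 both libraries of each stage lay above those of the stage before, and P28 overlapped P21. Over stages, the mean log2 ratio was 1.43 ± 1.57 after birth and -1.99 ± 0.38 before it (SD over 8 and 4 stages), a difference of 3.42 or 10.7-fold. An exact two-sided permutation test over the 12 stage means gave p = 0.00404, over 495 arrangements that can give no p under 0.002. The test treats stages as independent, although neighbouring ages are alike. Because the ratio climbed with age, a split of earlier from later stages is bound to give a small p, so this p does not single out birth.

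Per kilobase of coding transcript, the ratio of Slc12a5 to Slc12a2 was 0.247 ± 0.137 at E11, 0.455 ± 0.135 at E16, 0.775 ± 0.0452 at P0, 1.65 ± 0.061 at P2, 3.71 ± 0.217 at P6, 11.7 ± 1.35 at P14 and 17.8 ± 1.43 at P28 (SD, n = 2 libraries each). On this scale both libraries of P2 (1.61 and 1.7) were above 1 and both of P0 (0.807 and 0.744) below it. The largest step of the count ratio was P2 over P0, 2.22-fold, in which Slc12a5 had 59.6 ± 4.2 CPM at P2, against 36.3 ± 1.4 CPM at P0, and Slc12a2 had 59.0 ± 2.36 CPM at P2, against 79.8 ± 4.72 CPM at P0. At P21 over P14 the ratio was 1.67-fold higher while Slc12a5 was not called (log2 change 0.06, SE 0.249, edgeR adjusted p = 0.892); Slc12a2 was at 60.3 ± 1.55 CPM at P21, against 97.2 ± 11.8 CPM at P14. The libraries held a mixture of cells, so the ratio is that of the tissue and not of any one cell type.

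**Figure D4:**
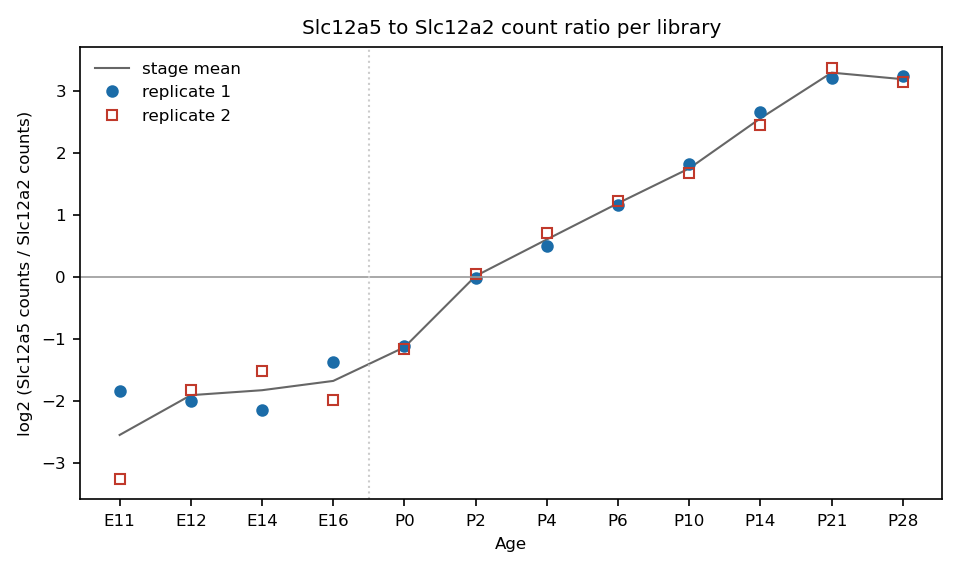
Log2 of the Slc12a5 to Slc12a2 count ratio (vertical axis) at 12 ages in replicate 1 (filled circles) and replicate 2 (open squares), with the stage mean as a line, birth as a dotted line and equal counts as a horizontal line. The libraries are near equal counts at P2 (0.989 and 1.03 as ratios), where the ratio per kilobase was 1.61 and 1.7, and lie apart from the stage before at each age from P0 to P21.

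Broad windows set the genes side by side. In E16 against E11, 2 of the 6 were called, both higher, where 22.7% of all genes were called in either direction. Glra2 had 705 counts at E16, against 2 at E11, a ratio of rates of 320 with a 95% exact interval of 88.3 to 2650 that covers counting error only, and an edgeR adjusted p of 2.1e-11. Glra1 had 4.81 estimated counts at E16, against none at E11, and its mean at E16 was 1.47-fold the floor of E11. This value leaves out the counting error of the few reads at E16, so it is no lower bound. The gene was called on a fitted log2 change of 4.31 (SE 1.28, edgeR adjusted p = 0.0268). That call did not hold without E11 replicate 1, E11 replicate 2 or E16 replicate 2, with adjusted p-values of up to 0.265. Slc12a5 was not called (log2 change 0.59, SE 0.265, adjusted p = 0.0782). It was called without E11 replicate 1, the library with 23.0 CPM and a lens sum of 3233 CPM, with a change of 1.31 and an adjusted p of 0.000239. Without E11 replicate 2, the library with 10.09 CPM and a red cell sum of 7662 CPM, the change was 0.13 with an adjusted p of 0.714, and without one or the other library of E16 it was 0.30 and 0.85. Glrb differed by 0.39 (adjusted p = 0.00906), Glra3 by 1.02 (adjusted p = 0.108) and Slc12a2 by -0.19 (adjusted p = 0.111), and none of these was called.

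In P6 against E16, 5 of the 6 were called, all higher, where 24.9% of all genes were called in either direction. Slc12a5 averaged 176 ± 6.53 CPM at P6, against 25 ± 6.62 CPM at E16 (SD, n = 2 libraries each), a log2 change of 2.82 (SE 0.271, edgeR adjusted p = 1.72e-07). Glra2 averaged 47.5 ± 2.17 CPM at P6, against 10.7 ± 0.583 CPM at E16, a change of 2.14 (SE 0.166, adjusted p = 2.26e-08). Glrb averaged 54.2 ± 1.32 CPM at P6, against 19.3 ± 2.36 CPM at E16, a change of 1.49 (SE 0.112, adjusted p = 8e-09). Glra1 rose by a fitted 3.35 (adjusted p = 4.32e-05) and Glra3 by 1.47 (adjusted p = 0.00783). The Glra3 call did not hold without E16 replicate 1 (adjusted p = 0.069) or P6 replicate 1 (adjusted p = 0.0671). Slc12a2 was at 77.5 ± 5.06 CPM at P6, against 78.5 ± 2.45 CPM at E16, a change of -0.02 (SE 0.0932, adjusted p = 0.888) whose sign turned under other scalings.

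In P28 against P6, 3 of the 6 were called, all higher, where 24.7% of all genes were called in either direction. They were Glra1, with 12.4 ± 0.642 CPM at P28, against 0.808 ± 0.065 CPM at P6 (log2 change 3.92, SE 0.322, edgeR adjusted p = 2.15e-07), Glra3, with 19.8 ± 1.98 CPM at P28, against 2.84 ± 0.666 CPM at P6 (2.80, SE 0.383, adjusted p = 1.21e-05), and Slc12a5, with 661 ± 30.4 CPM at P28, against 176 ± 6.53 CPM at P6 (1.91, SE 0.258, adjusted p = 1.08e-05). Glra2 was at 25.1 ± 0.685 CPM at P28, against 47.5 ± 2.17 CPM at P6. Its change of -0.92 (SE 0.158, adjusted p = 0.000161) was under 2-fold, and it was called lower with library size alone as the scaling (-1.01). Glrb differed by 0.72 (SE 0.108, adjusted p = 3.03e-05), also under 2-fold, and Slc12a2 by -0.10 (adjusted p = 0.413). Between P28 and P6 the ganglion cell sum was 1003 and 954 CPM at P28, against 763 and 768 CPM at P6, the amacrine sum 703 and 614 CPM, against 555 and 556 CPM, and the sum of 9 bipolar cell genes 1611 and 1489 CPM, against 1484 and 1351 CPM. The rod sum was 53944 and 59711 CPM at P28, against 6373 and 6343 CPM at P6, and the sum of 7 Müller glia genes 3329 and 2874 CPM, against 1208 and 1280 CPM. Their part in the changes of the 6 genes was not tested.

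In the authors' deposited table of differential expression, which lists 12718 genes, 5 of the 6 genes are present and Slc12a2 is not among them. The highest adjusted p listed there, from an F test over any age, is 0.009992, so a gene that is absent may still have been tested. The authors' deposited table gives a log2 change of P28 over E11 of 2.64 for Glrb, 5.29 for Glra3, 5.47 for Slc12a5, 9.39 for Glra2 and 9.56 for Glra1. The last 2 of these rest on E11 libraries with 2 counts and with none.

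The genes whose stage profile was most like that of each of the 6 were read as the highest Pearson r over 12 stage means of log2 CPM, among 10431 genes; these are descriptions, since the points share libraries and most of these profiles climb with age. They were Calb1, the gene of calbindin (0.99), Nsf (0.99) and Emc7 (0.99) for Glra1, Ackr1 (0.99), Pcdhac2 (0.99) and Pcdha9 (0.99) for Glra2, and Nebl (0.99), Nyx (0.99) and Sfxn5 (0.99) for Glra3. For Glrb they were Kcnip4 (0.99), Kdm4c (0.99) and Cyld (0.99), and for Slc12a5 they were Jchain (0.99), Calb1 (0.99) and Rtbdn (0.99). For Slc12a2 the nearest were lower, Chsy1 (0.91), Hdx (0.87) and E2f3 (0.87). Among the 6, Slc12a5 went closely with Glra1 (0.99), Glrb (0.98) and Glra3 (0.98) and less with Glra2 (0.64), and Slc12a2 had an r between -0.40 and -0.07 with the other genes.

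Genes that supply and handle glycine were followed as the setting of the receptors. Over all genes tested, 13.6% were called higher and 9.11% lower at E16 against E11, 13.2% higher and 11.7% lower at P6 against E16, and 24.7% in either direction with 10.5% lower at P28 against P6, where 3111 of 21858 genes were called higher. The counts of this and the following lists stand against these shares. Of 6 tested genes of glycine transport and vesicle loading, 3 rose and 1 fell at E16 against E11 (median log2 change 1.51, against 0.00 over all genes), 4 rose at P6 against E16 (median 1.48, against 0.01), and 2 rose and 1 fell at P28 against P6 (median 0.25, against 0.04). Slc32a1, whose product loads glycine and GABA into vesicles, had 7.09 ± 0.703 CPM at E16, against 0.0853 ± 0.0739 CPM at E11 (edgeR adjusted p = 6.34e-10), and rose again at P28, to 47.8 ± 6.47 CPM, against 19.5 ± 1.94 CPM at P6. Slc6a5, the gene of the neuronal glycine transporter GlyT2, was called higher in all 3 windows, with 31.7 ± 4.15 CPM at P28, against 10.04 ± 0.675 CPM at P6 (log2 change 1.66, adjusted p = 3.52e-07). Slc6a9, the gene of GlyT1, the transporter of glycinergic amacrine cells, rose at P6 to 83.7 ± 0.0308 CPM, against 17.9 ± 0.97 CPM at E16 (2.23, SE 0.205, adjusted p = 1.04e-07). Slc38a5, a glutamine and glycine transporter, fell at E16 (-3.03), rose at P6 (3.44) and fell at P28 (-1.88), on means of 0.403 to 4.5 CPM. The list of 6 genes taken for glycinergic amacrine cells summed to 361 and 340 CPM at E16, 299 and 298 CPM at P6 and 351 and 314 CPM at P28. That sum was 33.8 and 30.8 CPM at E11 and already 442 and 388 CPM at E14, where Slc6a9, one of its genes, had 20.8 ± 6.7 CPM. It is therefore not read as the content of glycinergic cells.

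Genes that make or cleave glycine include the serine synthesis enzymes, which supply its precursor. Of 9 tested, 3 fell at E16 against E11 (median log2 change -0.80, against 0.00 over all genes), 4 fell at P6 against E16 (-0.86, against 0.01) and 2 fell at P28 against P6 (-0.36, against 0.04). Phgdh, the first enzyme of serine synthesis, had 5.88 ± 1.37 CPM at P6, against 34.9 ± 2.97 CPM at E16 (log2 change -2.56, SE 0.231, edgeR adjusted p = 8.18e-08), and it had also fallen at E16 against E11 (-2.18). Shmt1, which interconverts serine and glycine, fell by 2.25 at P6 and by 1.52 at E16 on the log2 scale, and Shmt2, its mitochondrial partner, fell by 1.35 at P6. Gcsh, a part of the glycine cleavage system, fell by 1.36 at E16. Gldc, the decarboxylase of that system, had 19.2 ± 1.94 CPM at P28, against 118 ± 4.8 CPM at P6 (-2.62, adjusted p = 1.1e-09), and Psat1, of serine synthesis, fell by 1.08.

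Genes of the inhibitory postsynaptic scaffold mostly rose before birth. Of 10 tested, 7 rose at E16 against E11 (median log2 change 1.45, against 0.00 over all genes), 3 rose at P6 against E16 (0.48, against 0.01), and 3 rose and 1 fell at P28 against P6 (-0.06, against 0.04). Iqsec3, an exchange factor that binds gephyrin, had 51.1 ± 11.12 CPM at E16, against 0.648 ± 0.0823 CPM at E11 (log2 change 6.28, SE 0.235, edgeR adjusted p = 1.66e-12), and was called higher in the other windows too (1.5 and 1.05). Slitrk3, a synaptic adhesion protein, rose by 3.17, 1.89 and 1.13 in the same order of windows. Lhfpl4, a partner of GABA-A receptors, rose by 3.0 at E16, and Magi2, a scaffold protein, by 1.27 at P6. Glra4 was not called at E16 and rose at P6 (1.45, adjusted p = 0.0189) and at P28, to 3.14 ± 0.0507 CPM, against 0.539 ± 0.0388 CPM at P6 (2.51, adjusted p = 4.73e-05).

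Other cotransporters of the family did not share one course. Of 6 tested, 1 rose and 2 fell at E16 against E11 (median log2 change -0.01, against 0.00 over all genes), 2 rose and 1 fell at P6 against E16 (0.15, against 0.01), and 1 rose at P28 against P6 (0.46, against 0.04). Slc12a7, the gene of the potassium and chloride exporter KCC4, fell to 40.2 ± 3.21 CPM at E16, against 97.9 ± 17.5 CPM at E11 (log2 change -1.28, edgeR adjusted p = 6.37e-07), and to 8.9 ± 0.26 CPM at P6, against 40.2 ± 3.21 CPM at E16 (-2.17, adjusted p = 1.9e-09). Slc12a4, the gene of KCC1, fell at E16 by 1.04 (adjusted p = 0.00234). Slc12a1, known from the kidney, was called higher at P6 and at P28 but had only 0.0308 ± 0.000455 CPM at E16, 0.202 ± 0.0697 CPM at P6 and 0.724 ± 0.163 CPM at P28.

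Kinases and partners of the cotransporters were read in the same windows. Of 11 tested, 2 rose at E16 against E11 (median log2 change 0.12, against 0.00 over all genes), 1 fell at P6 against E16 (-0.25, against 0.01) and 1 fell at P28 against P6 (-0.33, against 0.04). Ckb, the brain creatine kinase, and Wnk2, a kinase of the WNK family that acts on cotransporters, rose at E16 by 1.35 and 1.33. Prkcd, a protein kinase C, fell at P6 by 1.51 and at P28 by 1.40. Of 13 other chloride and bicarbonate transport genes, 5 rose and 1 fell at E16 (median 0.59), 3 rose and 1 fell at P6 (0.10), and 3 rose at P28 (0.25). Slc4a10, a bicarbonate transporter of neurons, had 0.0108 ± 0.0153 CPM at E11, 2.65 ± 0.4 CPM at E16, 64.7 ± 8.11 CPM at P6 and 236 ± 19 CPM at P28, and was called in all 3 windows. The calcium-activated chloride channel genes went opposite ways after birth: Ano2 had 126 ± 0.405 CPM at P6, against 1.85 ± 0.576 CPM at E16 (6.08, edgeR adjusted p = 5.71e-08), and Ano1 had 4.91 ± 0.72 CPM at P6, against 127 ± 1.08 CPM at E16 (-4.70, adjusted p = 1.52e-10). Both had risen at E16 against E11 (3.44 and 3.15). Slc4a3, an anion exchanger, rose at P28 by 1.49, and Best2, a bestrophin, was called there with 0.152 ± 0.058 CPM, against 0.0161 ± 0.0228 CPM at P6.

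Of 3 tested genes known as regulators of the KCC2 gene in rodent neurons, none was called at E16 against E11 (median log2 change -0.20; edgeR's unadjusted p was under 0.05 for 2), 2 fell at P6 against E16 (-1.47) and 1 rose at P28 against P6 (0.13). Rest, the gene of a repressor of neuronal genes, had 24.6 ± 1.92 CPM at P6, against 71.8 ± 4.79 CPM at E16 (-1.54, SE 0.117, edgeR adjusted p = 8.99e-09), and its stage means from P6 on lay between 23.2 and 29.4 CPM. Bdnf, the gene of a neurotrophin, had 3.41 ± 0.109 CPM at P6, against 9.46 ± 1.29 CPM at E16 (-1.47, adjusted p = 0.000122), and 9.8 ± 0.854 CPM at P28, against 3.41 ± 0.109 CPM at P6 (1.52, adjusted p = 9.18e-05). The lists of genes around the 6 describe these libraries and set nothing apart from the other genes tested.

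**Figure D5:**
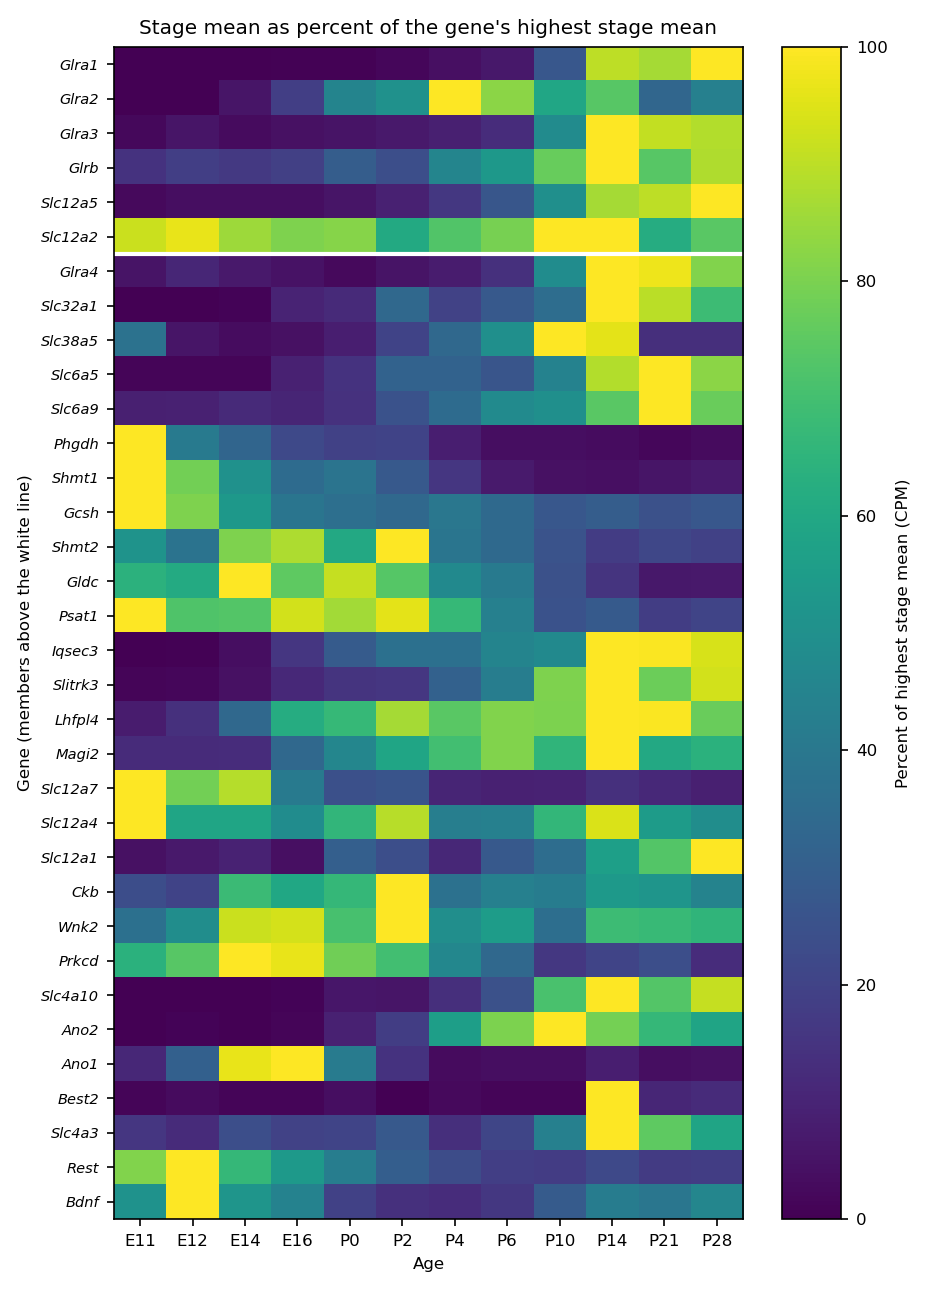
Stage means of CPM as a percent of each gene's highest stage mean (colour scale, 0 to 100) at 12 ages, for the 6 genes above the white line and the named genes of the glycine and chloride lists below it. Slc12a5, Glra1 and Glra3 are brightest from P14 to P28, Glra2 at P4, Phgdh, Shmt1 and Slc12a7 at E11, and Slc12a2 keeps at least about 60% of its highest mean throughout.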

How the data were processed

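Retina libraries of 12 stages were analysed from the deposited tables of gene counts and transcript counts. Both hold estimated counts that the authors made with kallisto 0.42.4 for GRCm38.p5, per the submitters' processing notes; no source states how transcripts were summed to genes. The authors' deposited table of differential expression gives log2 changes and an adjusted p-value, with edgeR 3.13.9 named in the same notes; the deposited table of log2 CPM was not used. Gene estimates were rounded to whole counts, filtered with filterByExpr (minimum count 10) and tested with edgeR 4.0.16 in R 4.3.3: TMM scaling, 1 model of 12 stages, quasi-likelihood F tests with 12 residual degrees of freedom, Benjamini-Hochberg adjustment over 21858 genes, and a call at an adjusted p under 0.05 with at least a 2-fold change. No row lacked a gene name or identifier. CPM per kilobase divides a transcript's scaled estimate by its deposited length. The ratio of 2 genes used counts plus 0.5 on the log2 scale.

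Library totals ran between 24567532 and 35898879. In no stage were the 2 libraries identical. The model was tested on simulated data with known changes. The 6 genes and the lists around them were chosen with earlier results of these data known; from each list, up to 3 called genes with the largest change per window are named, and for likeness the 3 genes with the highest r among those reaching 20 CPM. Alternatives were other scalings, DESeq2 1.42.0, no filter, a stricter filter, no fold threshold, only the compared stages, summed transcript estimates, a replicate block and each library left out in turn; another length of the coding Glra3 transcript was added after seeing the data. Sequences came from RefSeq promoters (GRCm38.p6) and GENCODE M21 transcripts (GRCm38). Insyn1 and Insyn2a were not matched by symbol, and Slc6a14, Slc12a3 and Egr4 fell under the filter. Some genes of these lists and some sequences are not reported here; the counts over the lists include those genes.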

Additional observations from a re-analysis of the deposited data

How the results depend on the processing

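The count of genes called over 12 stages was 5 of 6 under every alternative run except the one with no fold threshold, where Slc12a2 made it 6, and the postnatal minus embryonic log2 ratio of Slc12a5 to Slc12a2 stayed between 3.25 and 3.60 with each library left out (exact permutation p of up to 0.00606). In E16 against E11, 1 gene rather than 2 was called with only the compared stages or with DESeq2, and 1 to 3 with one library left out. In P6 against E16, leaving out one library gave 4 to 5 calls, and in P28 against P6 it gave 3 in each case. Without the fold threshold, 5 genes rather than 3 were called in P28 against P6 and 23 rather than 8 pairs of a gene and a step; leaving out one library gave 7 to 10 pairs. The sign of Slc12a2 in P6 against E16 (-0.02) turned to 0.002 with RLE size factors and with DESeq2, 0.004 with library size alone, 0.025 with summed transcript estimates, 0.009 without E16 replicate 2 and 0.043 without P6 replicate 2 (range -0.072 to 0.043 with one library left out); the cause was not tested. Glra1 in E16 against E11 had an adjusted p of 0.0555 with DESeq2, and Glra3 was called there with no filter (adjusted p = 0.0244). Replicate numbers only name the libraries: the correlation of deviations between stages had a median of 0.004 over 66 pairs, and with a replicate block the Glra3 step to P14 over P10 (log2 change 1.06) had an adjusted p of 0.0521, while the other calls on single genes were kept. The Glra3 minus Glra2 share of the alpha level at P21, 6.585 percentage points, was -27.1 with the GENCODE length of the coding Glra3 transcript, which scales that gene alone. Low counts limit Glra1 before P4 and the transcript estimates of the embryonic stages.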
